A study of Mus musculus with 8 samples.

Results

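The mouse genes with the highest values in serum exosome RNA of this series were 8 predicted genes: Gm10800, Gm10801, Gm10719, Gm10718, Gm29013, Gm42857, Gm17132 and Gm10780. They were chosen by their deposited values, as the mouse genes with the highest mean over all 8 libraries, and they are 8 of the 31300 mouse genes in a table of 52016 mouse and dog genes. Their means over the 8 libraries, which chose them, ran from 122418 for Gm10800 down to 8696 for Gm10780. The next mouse gene, Tlr1, a Toll-like receptor, had a mean of 8344, and the one after it, Gm10717, had 6646. The values are whole numbers that add up to nearly the same total in each library, so each is a relative amount within its library, and the sequencing depth behind it is unknown.

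The libraries came from exosomes, small vesicles that cells shed into blood, enriched from the pooled serum of NCr nu/nu mice, an immunodeficient strain that lacks a normal thymus. OSCA-40 and OSCA-32 are cell lines from canine osteosarcoma, a bone cancer, and 100000 cells of either line were put into the tibia in 10 µl. There were 2 libraries each from mice given OSCA-40 (necropsy at week 8), mice given OSCA-32 (week 8), mice given 10 µl of PBS without cells (week 8) and all mice before injection (week 0). The labels do not tie the 2 libraries of a group to separate animals, so a p-value here reflects library-to-library spread that could be technical. In this bulk RNA, fewer vesicles or cells of a type and less RNA in each cannot be told apart.

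Mouse chromosomes carry long blocks of tandemly repeated satellite DNA around their centromeres, and LINE-1 elements, retrotransposons that encode the proteins for their own copying, are spread over every chromosome. Transcripts of either kind are normally kept low by chromatin silencing, and short copies of both are found inside gene annotations as predicted genes or pseudogenes. By their sequences the 8 genes fell into 4 satellite-like genes (Gm10800, Gm10801, Gm10719 and Gm10718), 3 LINE-1-like genes (Gm42857, Gm17132 and Gm10780) and Gm29013, which is rich in runs of a single base. These names rest on reading the transcripts and on textbook knowledge, because no repeat annotation was used.

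The satellite-like genes are shown first, because a word of 27 bases marks their repeat. On GRCm38, in the GENCODE annotation, Gm10800 lies at chr2:98666547-98667301 on the minus strand with 5 exons, and Gm10801 at chr2:98662237-98664083 on the plus strand with 4 exons, 2463 bp away. Gm10719 lies at chr9:3017408-3021593 and Gm10718 at chr9:3023547-3025218, both on the plus strand and 1953 bp apart, and the exons of both overlap those of a long noncoding RNA on the other strand, Gm26870, which was not analysed here. All 4 are annotated as protein coding, with transcripts of 504 to 681 bases. The stretches below run from the first to the second match of the word in each GENCODE transcript, 5′ to 3′, with the word in capitals.

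Gm10800: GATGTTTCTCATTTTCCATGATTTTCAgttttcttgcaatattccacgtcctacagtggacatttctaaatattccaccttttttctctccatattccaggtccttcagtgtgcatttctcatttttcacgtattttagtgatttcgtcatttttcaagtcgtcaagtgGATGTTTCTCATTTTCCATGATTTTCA

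Gm10801: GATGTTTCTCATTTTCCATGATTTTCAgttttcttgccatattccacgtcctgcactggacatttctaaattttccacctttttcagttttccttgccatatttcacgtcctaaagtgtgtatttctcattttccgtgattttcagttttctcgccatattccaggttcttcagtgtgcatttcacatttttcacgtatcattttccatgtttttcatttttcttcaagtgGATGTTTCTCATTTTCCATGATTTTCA

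Gm10719: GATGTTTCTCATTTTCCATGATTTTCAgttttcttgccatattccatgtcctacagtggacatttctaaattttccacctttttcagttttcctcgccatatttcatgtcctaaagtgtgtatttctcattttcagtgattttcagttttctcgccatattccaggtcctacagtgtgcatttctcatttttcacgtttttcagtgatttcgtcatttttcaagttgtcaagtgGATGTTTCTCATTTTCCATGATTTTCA

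Gm10718: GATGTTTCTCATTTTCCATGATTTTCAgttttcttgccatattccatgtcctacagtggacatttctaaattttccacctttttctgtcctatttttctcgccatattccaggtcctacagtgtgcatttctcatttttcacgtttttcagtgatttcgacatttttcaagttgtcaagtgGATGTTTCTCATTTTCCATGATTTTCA

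The word is the longest that every annotated transcript of these 4 genes holds at least 2 times. Its matches start 169 bases apart in Gm10800, 231 in Gm10801, 234 in Gm10719 and 181 in Gm10718. Counted on either strand, it occurs in 17 of 111362 listed mouse transcripts (0.0153%), which belong to 11 genes, and 7 genes hold it 2 times or more. Compared with itself at a distance of 234 bases, the Gm10718 transcript was identical at 62.6% of positions. Gm10800 had its highest self-identity at 225 bases (56.3%, against a median of 30.7% over all distances compared) and Gm10801 at 231 bases (52.7%, median 31.7%). All 4 also had a peak at 58 bases, of 57.6% in Gm10718 and 51.2% in Gm10800. No distance reached these values in the LINE-1-like genes or Gm29013, whose highest self-identity was 43.5%, in Gm10780.

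**Figure D1:**
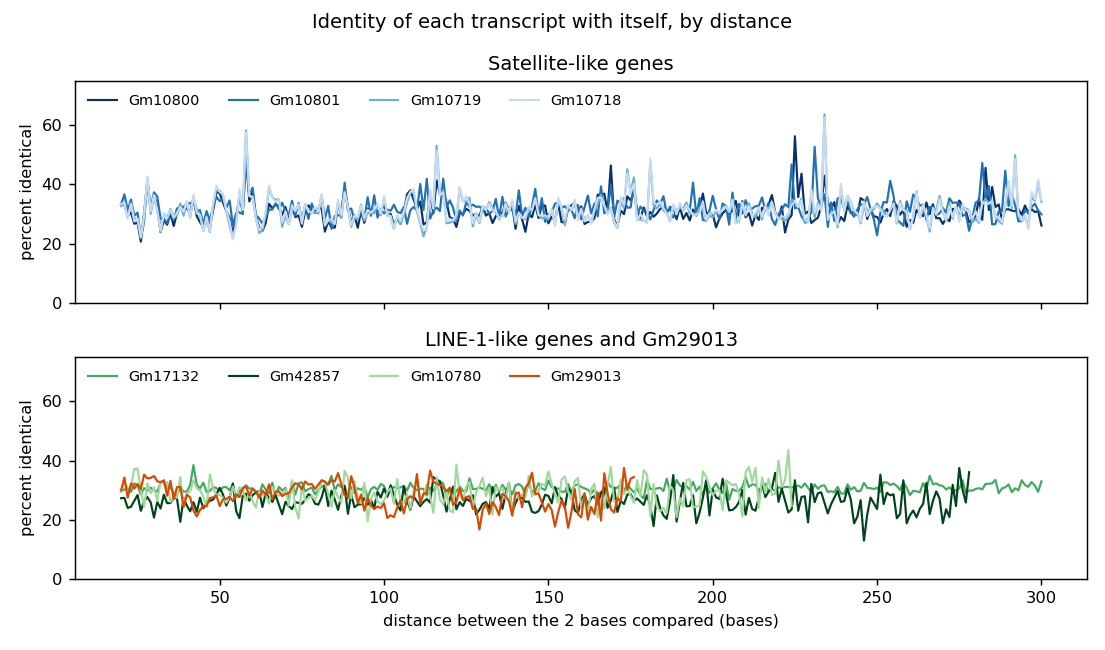
Percent of bases of each transcript that are identical to the base a given distance further on (x axis, in bases), for the 4 satellite-like genes (top) and the other 4 genes (bottom), 1 transcript per gene. The satellite-like genes have sharp peaks at 58 bases and between 225 and 234 bases, and the other 4 genes stay under 45%.

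Gm10718 and Gm10719 were 93.4% identical over 684 aligned bases, Gm10719 and Gm10800 91.8% over 679, Gm10718 and Gm10800 91.6% over 679, Gm10800 and Gm10801 89.8% over 509, and Gm10718 and Gm10801 89.1% over 521. Each of these values is that of the longest alignment of the pair, which for Gm10719 and Gm10801 was 73.0% identical over 523 bases. Gm10719 and Gm10801 nevertheless shared 92 words of 31 bases, against 75 for Gm10718 and Gm10801. The 73.0% therefore does not rank them as the least alike. Words of 31 bases were shared widely: 79.0% of those of Gm10718 occurred in other mouse genes, as did 71.0% for Gm10719, 42.0% for Gm10800 and 36.2% for Gm10801. Reads from such stretches can be split between the copies by the authors' quantification, so the level of any single satellite-like gene is uncertain, and their sum is less so.

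Gm10780 and Gm17132 start with the same kind of LINE-1-like stretch, the beginning of the first open reading frame. They are shown side by side because they are the LINE-1-like pair whose ratio differed most across the 8 libraries. The highest ratio divided by the lowest was 2.42 for this pair. It was 2.09 for Gm42857 to Gm10780 and 1.70 for Gm42857 to Gm17132. Gm17132 is an unprocessed pseudogene of 1158 bases at chr5:127877333-127878490 on the plus strand, inside an intron of Tmem132d, which lies on the other strand. Gm10780 is a pseudogene at chr3:70689092-70689380 on the plus strand, with a transcript of 285 bases in 2 exons. Capitals mark the bases, counted from the start of each transcript, at which the first 165 bases of the 2 transcripts differ.

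Gm10780: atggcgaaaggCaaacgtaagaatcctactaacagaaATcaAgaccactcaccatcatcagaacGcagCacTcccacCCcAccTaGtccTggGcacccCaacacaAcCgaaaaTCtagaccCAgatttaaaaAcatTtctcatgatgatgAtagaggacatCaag

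Gm17132: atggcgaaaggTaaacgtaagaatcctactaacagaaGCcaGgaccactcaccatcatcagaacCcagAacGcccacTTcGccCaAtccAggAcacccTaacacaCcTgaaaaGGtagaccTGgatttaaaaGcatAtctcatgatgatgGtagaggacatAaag

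They differ at 25 of these 165 bases, and over 290 aligned bases they were 85.2% identical. The pair shared no word of 31 bases, while 77.3% of the words of Gm10780 and 65.9% of those of Gm17132 occurred in genes outside the 8. Gm42857, a processed pseudogene of 339 bases at chr5:39002693-39003031 on the minus strand, is LINE-1-like over another stretch, near the end of the second open reading frame, and aligned with none of the other 7 genes. Of its words of 31 bases, 88.0% occurred in other genes, and 137 other genes held at least 1 of them. Its first 180 bases are shown for comparison with the pair, with no base marked.

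Gm42857: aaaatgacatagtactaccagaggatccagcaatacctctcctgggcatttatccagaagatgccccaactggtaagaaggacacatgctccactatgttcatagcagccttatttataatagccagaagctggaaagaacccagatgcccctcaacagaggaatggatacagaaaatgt

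Gm29013 is an unprocessed pseudogene in 1 exon at chr1:105244425-105244661 on the plus strand. The whole transcript of 237 bases is shown because its runs of A and T set it apart, and runs of 10 or more are in capitals.

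Gm29013: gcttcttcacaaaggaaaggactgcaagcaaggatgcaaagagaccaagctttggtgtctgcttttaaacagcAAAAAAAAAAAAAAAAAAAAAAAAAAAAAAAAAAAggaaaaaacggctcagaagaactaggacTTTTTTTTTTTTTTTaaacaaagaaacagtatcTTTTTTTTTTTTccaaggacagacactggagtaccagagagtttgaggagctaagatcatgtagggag

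The runs are 35, 15 and 12 bases long and make up 26.2% of the transcript, the highest such share among the 31171 mouse genes matched to a transcript. The run of 35 is longer than a word of 31 bases, and 165 other genes shared at least 1 word with Gm29013, although only 13.8% of its words were shared.

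The first question was how much of each library the 8 genes took. Together they held 13.1% and 11.4% of the library total in the OSCA-40 libraries and 19.2% and 19.8% in the OSCA-32 libraries. They held 30.6% and 29.7% in the PBS libraries and 31.6% and 29.8% in the week 0 libraries. No tumour library reached the tumour-free range, and the OSCA-40 libraries were the lowest. The group means were 12.3% ± 1.18 with OSCA-40, 19.5% ± 0.381 with OSCA-32, 30.2% ± 0.652 with PBS and 30.7% ± 1.24 at week 0 (SD, n = 2 each).

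The part listed as mouse differed between the groups, so the same sum was set against mouse genes alone, which made up 31.6% and 29.3% of the OSCA-40 libraries, 55.3% and 56.7% of the OSCA-32 libraries, 85.3% and 84.8% of the PBS libraries and 83.9% and 82.6% of the week 0 libraries. Of the mouse total the 8 genes held 41.5% and 39.1% with OSCA-40 and 34.8% and 34.9% with OSCA-32. They held 35.9% and 35.1% with PBS and 37.6% and 36.1% at week 0. On this scale the OSCA-40 libraries, the lowest on the library total, were the highest, and the OSCA-32 libraries lay just under the PBS libraries, as they lay under them on the library total. The 8 highest mouse genes of each library, whichever they were, held between 35.3% and 42.5% of its mouse total, and the 100 highest between 60.2% and 65.4%.

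**Figure D2:**
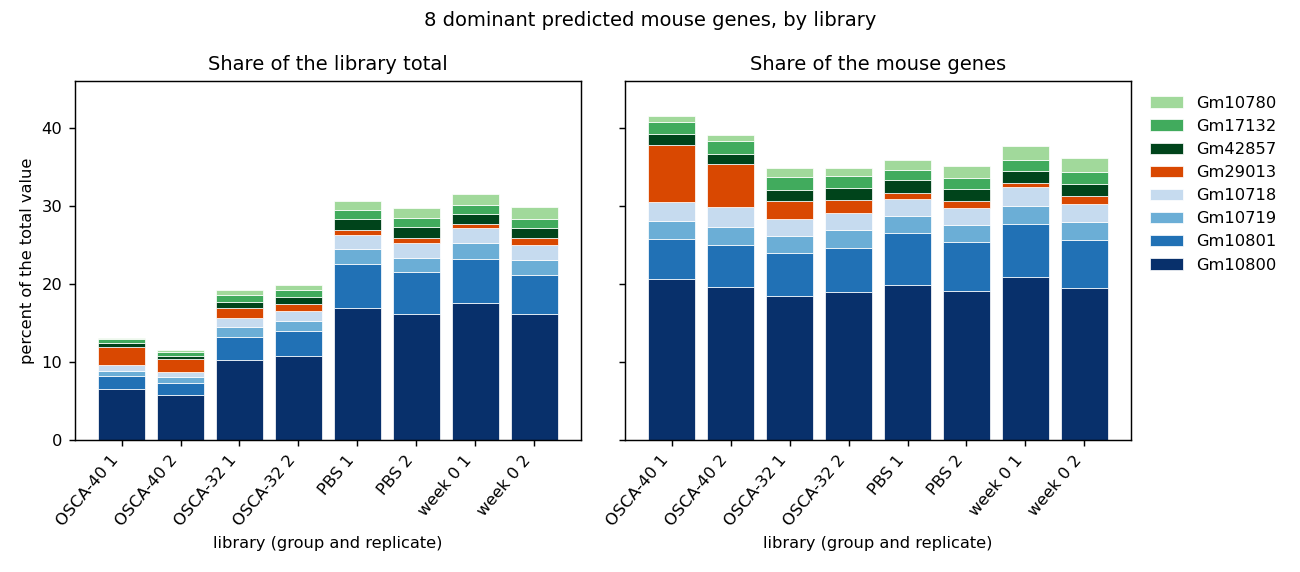
Share of the 8 genes in each library, as percent of the total of both species (left) and of the mouse total (right), stacked by gene. On the left the bars reach 11.4% to 19.8% in the tumour libraries and 29.7% to 31.6% in the tumour-free ones; on the right all bars lie between 34.8% and 41.5%, and the Gm29013 segment is widest in the OSCA-40 libraries.

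The satellite-like genes were the larger part of this sum. They held 30.5% and 29.8% of the mouse total with OSCA-40, 28.3% and 29.1% with OSCA-32, 30.8% and 29.7% with PBS and 32.4% and 30.2% at week 0, so all 4 groups lay within a few percentage points of each other. The LINE-1-like genes held 3.79% and 3.78% with OSCA-40, 4.13% and 4.10% with OSCA-32, 4.34% and 4.48% with PBS and 4.66% and 4.79% at week 0, and no 2 of these groups overlapped. Gm29013 alone held 7.22% and 5.51% with OSCA-40, 2.33% and 1.72% with OSCA-32, 0.737% and 0.835% with PBS and 0.569% and 1.08% at week 0.

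Each gene was then compared between the 4 tumour libraries and the 4 tumour-free libraries. As a share of the library total, 7 of the 8 genes were lower in every tumour library than in any tumour-free one. Of 7655 tested mouse genes, 58% did the same. Gm29013 was the 1 member that was higher in every tumour library (0.118% of tested mouse genes). Its place among the 8 rests on those tumour libraries, since in the tumour-free ones it ranked only 9 to 19 among the mouse genes. Gm10780 in turn ranked 5 and 6 in the tumour-free libraries, and 9 and 12 in the tumour ones. Its place among the 8 rests on the tumour-free libraries. Each test of Gm29013 or Gm10780, here and below, therefore uses values that helped to choose the gene. Such a test describes these values without being independent support. As a share of the mouse total, Gm29013 and Gm17132 were higher in every tumour library (3.75% of tested mouse genes), Gm10801, Gm42857 and Gm10780 were lower (5.36%), and the ranges of Gm10800, Gm10719 and Gm10718 overlapped. An exact two-sided permutation test over the 70 splits gave p = 0.0286 for each of those 5 genes, unadjusted over the 8 genes tested, which is the smallest p it can give. The same exact permutation test gave p = 0.514 for Gm10800, p = 0.657 for Gm10719 and p = 0.429 for Gm10718, and it takes the 2 libraries of a group as separate units.

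Gm10800 was the highest mouse gene in every library. Its deposited values were 64360 and 56860 with OSCA-40, 100332 and 105580 with OSCA-32, 165321 and 157550 with PBS, and 171847 and 157490 at week 0. The tumour libraries were all lower, and the PBS and week 0 libraries overlapped. Of the mouse total these values were 20.6% and 19.6% with OSCA-40, 18.4% and 18.9% with OSCA-32, 19.8% and 19.0% with PBS, and 20.9% and 19.5% at week 0, and the 4 groups overlapped except OSCA-32, whose libraries lay just under all others.

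Gm10801 had 15995 and 15241 with OSCA-40, 29831 and 31717 with OSCA-32, 55315 and 52358 with PBS, and 55269 and 49379 at week 0. Both tumour groups lay under the tumour-free groups, which overlapped. Gm10719 had 7349 and 7012 with OSCA-40, 12039 and 12568 with OSCA-32, 18934 and 18295 with PBS, and 19253 and 18771 at week 0. Gm10718, its neighbour, had 7534 and 7222 with OSCA-40, 11955 and 12189 with OSCA-32, 17595 and 18111 with PBS, and 19581 and 18584 at week 0. These chromosome 9 genes lay within a few percent of each other in nearly every library, with a ratio of Gm10719 to Gm10718 between 0.971 and 1.08.

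Gm29013 had 22540 and 15956 with OSCA-40, 12660 and 9566 with OSCA-32, 6141 and 6913 with PBS, and 4669 and 8698 at week 0. It was the only one of the 8 genes whose values ran the other way, highest with OSCA-40 and next with OSCA-32. Relative to its level, its libraries within a group differed more than those of any other member. Among the mouse genes it ranked 2 in both OSCA-40 libraries, 3 and 5 in the OSCA-32 libraries, 16 and 15 in the PBS libraries, and 19 and 9 in the week 0 libraries.

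Gm42857 had 4403 and 3879 with OSCA-40, 7025 and 8196 with OSCA-32, 13958 and 13569 with PBS, and 12400 and 12210 at week 0. Gm17132 had 4972 and 4631 with OSCA-40, 9108 and 8736 with OSCA-32, 10660 and 11127 with PBS, and 11774 and 12236 at week 0. Gm10780 had 2467 and 2431 with OSCA-40, 6354 and 5925 with OSCA-32, 11589 and 12409 with PBS, and 14115 and 14274 at week 0. All 3 LINE-1-like genes were lowest with OSCA-40 and next with OSCA-32. Gm10780 separated all 4 groups with no overlap, as did Gm42857 and Gm17132, but Gm42857 was higher with PBS than at week 0 and the other 2 were lower. As a share of the library total, 58% of tested mouse genes were lower in every tumour library than in any tumour-free one. The share of all genes that separate the 4 groups was not counted, so the separation is not shown to be particular to these 3 genes.

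Ratios between genes of 1 library need no library total. Among the satellite-like genes Gm10800 made up 67.6% and 65.9% of the 4-gene sum with OSCA-40, 65.1% and 65.2% with OSCA-32, 64.3% and 64.0% with PBS and 64.6% and 64.5% at week 0. Gm10801 made up 16.8% and 17.7% with OSCA-40, 19.4% and 19.6% with OSCA-32, 21.5% and 21.3% with PBS and 20.8% and 20.2% at week 0, so its part was smallest with OSCA-40 and next with OSCA-32. Gm10719 stayed between 7.24% and 8.12% of the sum and Gm10718 between 6.84% and 8.37%.

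Over all 28 pairs of the 8 genes, the highest ratio across the 8 libraries divided by the lowest had a median of 1.66. It was under 1.5 for 13 pairs, and the steadiest was Gm10800 to Gm10719, whose ratio ran from 8.11 to 8.93, a spread of 1.10-fold. The 7 pairs that spread over 5-fold were the 7 that hold Gm29013, and the widest, Gm29013 to Gm10780, spread 27.6-fold. That ratio was 9.14 and 6.56 with OSCA-40, 1.99 and 1.62 with OSCA-32, 0.530 and 0.557 with PBS, and 0.331 and 0.609 at week 0. Among the pairs without Gm29013 the widest was Gm17132 to Gm10780, with ratios of 2.02 and 1.91 with OSCA-40, 1.43 and 1.47 with OSCA-32, 0.920 and 0.897 with PBS, and 0.834 and 0.857 at week 0. The 2 genes that share the LINE-1-like start thus exchanged their order between the tumour and the tumour-free libraries.

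**Figure D3:**
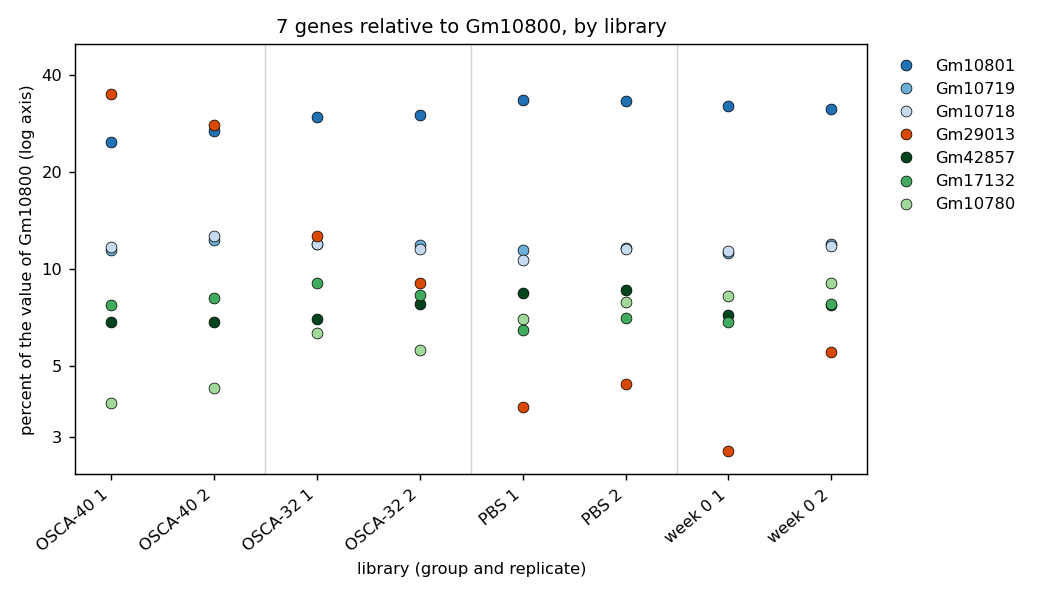
Value of 7 genes as percent of the value of Gm10800 in the same library (log axis), by library. Gm10719 and Gm10718 form near-level rows, and Gm10801 spans 24.9% to 33.5%, lowest with OSCA-40. Gm29013 spans 2.72% to 35.0%, and Gm10780 spans 3.83% to 9.06% in the opposite direction to Gm29013.

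The ratio to Gm10800 was tested with limma across 7871 genes, with Benjamini-Hochberg adjustment over all of them. With OSCA-40 against PBS, 2 of the 7 ratios passed an adjusted p of 0.05 (5.34% of all genes tested did, 2.83% higher and 2.5% lower). Gm29013 was 35.0% and 28.1% of Gm10800 with OSCA-40 and 3.71% and 4.39% with PBS, a log2 difference of 2.96 ± 0.31 (SE, adjusted p = 0.00123). Gm10780 was 3.83% and 4.28% of Gm10800 with OSCA-40 and 7.01% and 7.88% with PBS, a log2 difference of -0.88 ± 0.12 (SE, adjusted p = 0.00393). Both kept adjusted p-values under 0.05 when any 1 library was left out, with 0.0156 and 0.047 as the highest. Gm10801 had 24.9% and 26.8% with OSCA-40 and 33.5% and 33.2% with PBS, and its log2 difference of -0.37 ± 0.10 did not pass (adjusted p = 0.0844).

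With OSCA-32 against PBS no ratio of the 7 passed (0.889% of all genes did), 3 had an unadjusted p under 0.05, and Gm29013 had the widest difference, 1.41 ± 0.31 (SE, limma adjusted p = 0.125). With OSCA-40 against OSCA-32 none passed either (2.08% of all genes did), 2 had an unadjusted p under 0.05, and Gm29013 (1.55 ± 0.31, limma adjusted p = 0.0506) and Gm10780 (-0.56 ± 0.12, limma adjusted p = 0.0552) did not reach 0.05. Without the first or second week 0 library the ratio of Gm29013 passed in both of these comparisons (adjusted p = 0.0263 and 0.0265 with OSCA-32 against PBS, 0.0164 and 0.016 with OSCA-40 against OSCA-32). With PBS against week 0 none passed, against 0.0762% of all genes, and none had an unadjusted p under 0.05 by limma, with differences of -0.22 to 0.19.

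The genes were also compared after scaling each library to the bulk of its tested genes, after which the median tested mouse gene differed by -0.04 on the log2 scale with OSCA-40 against PBS. This scaling matters for direction: with the values as deposited, the median tested mouse gene was lower by a log2 difference of -1.53 with OSCA-40 against PBS and -0.56 with OSCA-32 against PBS, and changes below are relative to that shift. With OSCA-40 against PBS 347 genes passed higher and 184 lower after scaling, against 92 and 6633 on library totals. The comparisons with PBS share the PBS libraries, so they are given side by side and not as support for each other. All 8 genes passed the filter on low values, 10 or more in at least 2 libraries.

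**Figure D4:**
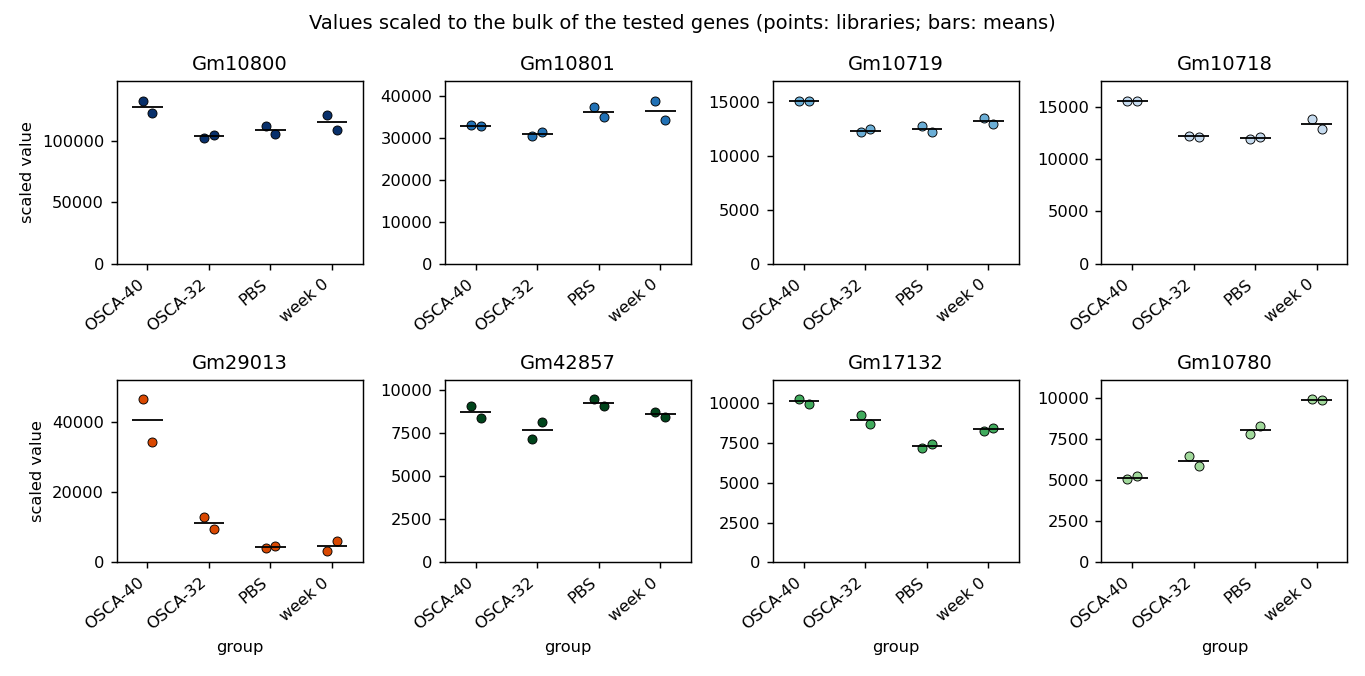
Values of the 8 genes scaled to the bulk of the tested genes, for the 2 libraries of each group (points) with their mean (bar). Gm29013 is highest with OSCA-40, Gm10780 is lower with OSCA-32 and lowest with OSCA-40, and Gm10719 and Gm10718 are higher with OSCA-40 than with PBS or OSCA-32, though lower on library totals alone.

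With OSCA-40 against PBS 5 of the 8 genes passed by limma, 4 higher and 1 lower, where 6.75% of 7872 tested genes passed (4.41% higher, 2.34% lower). Gm29013 had scaled values of 46534 and 34432 with OSCA-40 and 4162 and 4624 with PBS, a log2 fold change of 3.19 ± 0.29 (SE, adjusted p = 0.000848). Gm10780 had 5093 and 5246 with OSCA-40 and 7854 and 8300 with PBS (-0.64 ± 0.06, adjusted p = 0.00118). Gm17132 had 10265 and 9993 with OSCA-40 and 7224 and 7443 with PBS (0.47 ± 0.05, adjusted p = 0.00281). In each of these 3 genes the groups stood clear of each other, and the call held without any 1 library. Without a variance trend in the limma fit, Gm29013 passed (adjusted p = 0.00707), and Gm10780 (adjusted p = 0.083) and Gm17132 (adjusted p = 0.152) did not. With no filter on low values the Gm17132 difference was 0.22 (limma adjusted p = 0.0362).

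Gm10718 had 15554 and 15585 with OSCA-40 and 11924 and 12114 with PBS (0.37 ± 0.05, limma adjusted p = 0.00649), and the call was lost without the first PBS library (adjusted p = 0.0664) or the second (0.0568). Gm10719 had 15172 and 15131 with OSCA-40 and 12831 and 12237 with PBS (0.27 ± 0.05, limma adjusted p = 0.0217). Its call was lost without the first or second OSCA-40 library (0.0654 and 0.0589) or the first or second PBS library (0.0873 and 0.2). With no filter the differences were 0.13 for Gm10718 and 0.03 for Gm10719, and neither passed (limma adjusted p = 0.0969 and 0.7). Nor did they without a variance trend (limma adjusted p = 0.223 and 0.344), and the Gm10719 call was also lost when values were set against the mouse genes outside the members (0.21, limma adjusted p = 0.0629). Gm10800 (0.23 ± 0.08, limma adjusted p = 0.139), Gm10801 (-0.14 ± 0.07, 0.357) and Gm42857 (-0.09 ± 0.08, 0.576) did not pass. On library totals alone Gm10718, Gm10719 and Gm17132 were lower with OSCA-40 than with PBS, by -1.29, -1.39 and -1.20 on the log2 scale, whereas Gm29013 was still higher (1.52) and Gm10780 still lower (-2.31).

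With OSCA-32 against PBS 1 of the 8 genes passed by limma, where 1.09% of tested genes passed (0.191% lower). Gm10780 had scaled values of 6487 and 5888 with OSCA-32 and 7854 and 8300 with PBS, a log2 fold change of -0.39 ± 0.06 (SE, adjusted p = 0.0446). This call was lost when any 1 of the 8 libraries was left out, with adjusted p-values from 0.0569 without the first OSCA-32 library to 0.279 without the second PBS library. It was also lost with no filter, a pseudocount of 0.25, the replicate block, only the 2 groups compared or no variance trend (limma adjusted p from 0.0562 to 0.475). Gm29013 had 12925 and 9506 with OSCA-32 and 4162 and 4624 with PBS, a difference of 1.34 ± 0.29 that did not pass (limma adjusted p = 0.118) but passed without the first or second week 0 library (0.0486 and 0.0447). Gm17132 had 0.29 ± 0.05 (limma adjusted p = 0.0711), and Gm10800, Gm10719 and Gm10718 lay between -0.07 and 0.02.

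With OSCA-40 against OSCA-32 3 of the 8 genes passed by limma, all higher, where 2.76% of tested genes passed (1.77% higher). Gm29013 differed by 1.85 ± 0.29 (SE, adjusted p = 0.0231), Gm10718 by 0.36 ± 0.05 (adjusted p = 0.0191) and Gm10719 by 0.29 ± 0.05 (adjusted p = 0.0349). In all 3 genes the OSCA-40 libraries lay above the OSCA-32 libraries with no overlap. The Gm10719 call was lost without any 1 of the 8 libraries (adjusted p 0.0628 to 0.129). The Gm10718 call was lost without either library of OSCA-40, OSCA-32 or PBS (0.0541 to 0.0841), and the Gm29013 call without either OSCA-32 library (0.0738 and 0.13), either PBS library (0.0508 and 0.0523) or the first OSCA-40 library (0.0813). No call of the 3 held with no filter (limma adjusted p from 0.0642 to 0.539) or with no variance trend (0.0865 to 0.408).

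With PBS against week 0, which compares serum at necropsy with serum before injection, none of the 8 genes passed by limma (0.165% of tested genes did), and 3 had an unadjusted p under 0.05. Their log2 fold changes ran from -0.30 in Gm10780, with scaled values of 7854 and 8300 with PBS and 9946 and 9888 at week 0 (adjusted p = 0.391), to 0.11 in Gm42857.

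**Figure D5:**
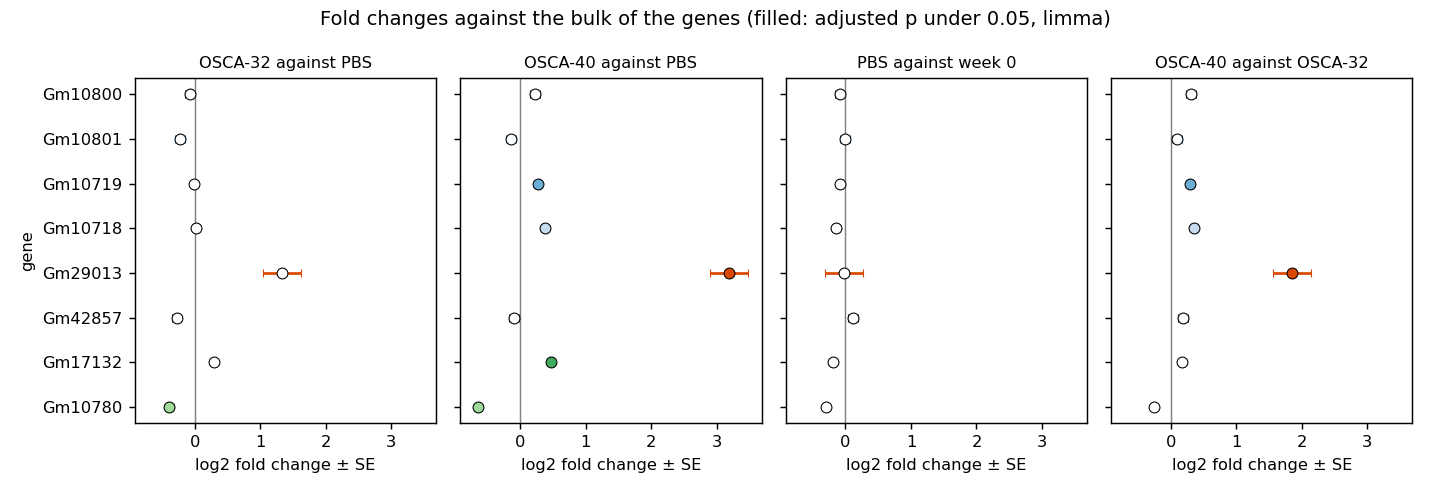
Log2 fold change of each gene in the scaled values, with its standard error, in 4 comparisons; filled points passed an adjusted p of 0.05 by limma. Gm29013 stands at 3.19 with OSCA-40 against PBS and 1.34 with OSCA-32 against PBS, and the other 7 genes stay between -0.64 and 0.47 in all 4 panels.

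Over the 8 genes the median log2 fold change was 0.25 with OSCA-40 against PBS (all tested genes -0.02), -0.04 with OSCA-32 against PBS (0.00), 0.24 with OSCA-40 against OSCA-32 (-0.01) and -0.08 with PBS against week 0 (0.00). The 4 satellite-like and 3 LINE-1-like genes belong to larger sets with the same sequence. With a BLAST identity of at least 80% over at least 50% of a transcript, 8 further genes were satellite-like, 7 on chromosome 9 and Gm21738 on chromosome 14, and all 8 together held 3.34% to 3.85% of the mouse total. With OSCA-40 against PBS 2 of these 8 were higher and none lower, with a median of 0.16, where 4.41% of all tested genes were higher and 2.34% lower. With OSCA-32 against PBS 1 was lower (0.191% of all tested genes). With OSCA-40 against OSCA-32 2 were higher and none lower (median 0.26, 1.77% of all tested genes higher). The whole satellite-like set of 12 genes held 31.7% to 36.2% of the mouse total, so the 4 members carried most of it.

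By the same measure 5 further genes were LINE-1-like, of which none passed with OSCA-40 against PBS or with OSCA-32 against PBS. With OSCA-40 against OSCA-32 1 of the 5, Gm44845, was higher (0.31, limma adjusted p = 0.0494), where 1.77% of all tested genes were higher. Shorter LINE-1-like stretches, from 1% of a transcript, were in 249 genes including the 3 members, and these held 12.2% to 15.1% of the mouse total. Transcripts with an A or T run of at least 31 bases belonged to 114 genes other than Gm29013, a property chosen after the values of Gm29013 were seen. Of the 50 that were tested, 13 were higher and none lower with OSCA-40 against PBS, with a median log2 fold change of 0.24 against -0.04 for all tested mouse genes, where 4.41% of all tested genes were higher. With OSCA-40 against OSCA-32 5 of the 50 were higher and none lower (median 0.26, 1.77% of all tested genes higher), and none was called with OSCA-32 against PBS (median 0.16).

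Markers of blood cells were set beside Gm29013. Of the platelet markers, Pf4, Ppbp, Tmsb4x, Gp1bb and Itga2b, 4 were tested and 3 were higher with OSCA-40 than with PBS. In deposited values the sum of the 5 was 201 and 175 with OSCA-40, 164 and 134 with OSCA-32, 124 and 104 with PBS, and 95 and 87 at week 0, and none of them was at 0 in any library. Pf4 and Tmsb4x made up most of this sum. Itga2b, which was also tested, had deposited values of 11 and 8 with OSCA-40 and 29 and 18 with PBS, and Gp1bb, which was not tested, had 1 and 2 with OSCA-40 and 6 and 5 with PBS, so both were lower with OSCA-40 in deposited values. In scaled values, which the tests used, Itga2b differed by 0.34 with OSCA-40 against PBS and did not pass (limma adjusted p = 0.583). The 5 hepatocyte markers summed to 40 and 45 with OSCA-40, 60 and 46 with OSCA-32, 39 and 53 with PBS, and 44 and 48 at week 0, and both that were tested were higher with OSCA-40 than with PBS in scaled values. Of the globins, 1 of 4 passed with OSCA-40 against PBS, higher, and of the 13 mitochondrial mRNAs 5 were higher and 1 lower, where 4.41% of tested genes were higher and 2.34% lower. With OSCA-32 against PBS 6 mitochondrial mRNAs were higher and 0 globins passed (1.09% of tested genes passed). With OSCA-40 against OSCA-32 3 mitochondrial mRNAs were lower and 1 globin higher (2.76%), and with PBS against week 0 3 mitochondrial mRNAs were higher and 1 globin lower (0.165%). Of the 15 entries on the list of ribosomal and structural RNA loci, 1, Lars2, was analysed here, with deposited values of 4 to 7, and it was not tested. Lars2 is itself a protein-coding gene, so no ribosomal or structural RNA locus of the list was analysed. The part of these transcripts in the Gm29013 result was not tested. Of 13 vesicle components, which check the label of the samples, 10 were at 1 or more in every library and none was at 0 in all, with Cd9 highest at 29 and 26 with OSCA-40, 106 and 117 with OSCA-32, 208 and 192 with PBS, and 198 and 234 at week 0. Of the 7 components tested, only Cd9 passed after scaling. It was lower with OSCA-40 against PBS (-1.20, limma adjusted p = 0.000725, 2.34% of tested genes lower). It was also lower with OSCA-40 against OSCA-32 (-0.94, limma adjusted p = 0.00567, 2.76% of tested genes passing).

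Genes outside the 8 with the most similar pattern were sought by Pearson's r of log2(share + 1) over the 8 libraries among 7647 mouse genes, as a description only. Most tested mouse genes were lower in every tumour library on this scale, as given above, so a high r is common. Gm10717, another satellite-like gene, was most like Gm10800 (r = 0.9997). Lpl, the lipoprotein lipase gene, was most like Gm10719 (r = 0.999), Uchl5 most like Gm10801 (r = 0.999) and Ccdc30 most like Gm10718 (r = 0.998). For the LINE-1-like genes these were Ssbp2 for Gm42857 (r = 0.998), Gm18451 for Gm17132 (r = 0.999) and Gm21750 for Gm10780 (r = 0.999). Gm29013 had no such close partner: the first was Tmsb4x, which encodes the actin-binding peptide thymosin beta 4 and is one of the platelet markers above (r = 0.898), with values of 95 and 88 with OSCA-40, 85 and 65 with OSCA-32, 43 and 42 with PBS, and 36 and 36 at week 0.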

How the data were processed

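Per the labels' protocols, serum exosomes were enriched with ExoQuick, their RNA was taken up with a SeraMir kit, and a stranded SMARTer pico-input kit made the libraries. According to the submitters' processing notes, the tools were FastQC 0.11.5, Trimmomatic 0.33.0 and kallisto 0.43.0, with CanFam3.1 and GRCm38.p5 as builds. The strand setting, annotation and index of the quantification being not given in the sources used here, reads of overlapping genes on the 2 strands may not be told apart. The deposited table of mouse and dog genes calls its values counts, but each library adds up to between 977106 and 989183, so the deposited values are treated as a score that resembles TPM over both species, made whole. Depth is unknown, no counting interval is given, and the count test that had been planned was replaced by limma.

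A gene was tested when it reached 10 in 2 or more libraries (7655 mouse and 217 dog genes). The scaling was a trimmed mean of the log ratios against week 0 library 1, trimming 30% of ratios and 5% of levels at each end, and log2(scaled value + 1) was fitted in limma 3.58.1 (R 4.3.3) with 1 mean per group over all 8 libraries (4 residual degrees of freedom) and a variance trend. A fold change on this scale understates that of low genes. Adjusted p-values are Benjamini-Hochberg values over all tested genes in each comparison. The ratio fit used log2 of (value + 1) over (Gm10800 + 1). Single shares were compared by exact permutation with SciPy 1.17.1. The procedure was tested on simulated data.

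Transcripts, positions and 31171 gene symbols came from GENCODE mouse release 21 on GRCm38; alignments used BLAST 2.17.0 (E-value of at most 1e-10). No genome sequence was used. The genes named are the 8 members, the next mouse genes by mean, the nearest genes by correlation, and lists of markers. The members and lists were chosen with earlier results of these data known. Alternatives were other scalings, pseudocounts of 0.25 and 4, a fit without the filter, one with means of 50 or more, one of the 2 groups in question, the replicate number as a block, a fit without a variance trend, other denominators and leaving out each library.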

Additional observations from a re-analysis of the deposited data

Results flagged for a closer look

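In 3 of the 8 genes the change with OSCA-40 against PBS differed from the change with OSCA-32 against PBS. This was tested by the direct comparison of the lines in limma, where 2.76% of all tested genes passed (1.77% higher). The difference was 1.85 on the log2 scale for Gm29013 (adjusted p = 0.0231), 0.36 for Gm10718 (adjusted p = 0.0191) and 0.29 for Gm10719 (adjusted p = 0.0349), each higher with OSCA-40, in both OSCA-40 libraries over both OSCA-32 libraries. No call of the 3 held with no filter or with no variance trend, and each was lost without some single libraries, as given above. On library totals alone the difference was 0.78 for Gm29013, which then did not pass (limma adjusted p = 0.0576), while Gm10718 and Gm10719 were lower with OSCA-40 (-0.72 and -0.78).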

How the results depend on the processing

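Members called numbered 5 with OSCA-40 against PBS, 1 with OSCA-32 against PBS, 3 with OSCA-40 against OSCA-32 and 0 with PBS against week 0; leaving out each library in turn gave 3 to 5, 0 to 1, 0 to 2 and 0. On library totals alone the first 3 counts were 8 (1 higher, 7 lower), 7 (all lower) and 7 (all lower). With OSCA-32 against PBS the count was 0 with a pseudocount of 0.25, no filter, only the groups compared, the replicate block or no variance trend, and 5 with a mean of at least 50. Without a variance trend it was 1 (Gm29013) with OSCA-40 against PBS and 0 with OSCA-40 against OSCA-32, where no filter gave 1. Ratios to Gm10800 that passed numbered 2 with OSCA-40 against PBS (2 without any 1 library), 0 with OSCA-32 against PBS (0 to 1) and 0 with OSCA-40 against OSCA-32 (0 to 1; 2 with a pseudocount of 4). Library totals turned these log2 fold changes: with OSCA-40 against PBS, Gm17132 -1.20, Gm10800 -1.43, Gm10718 -1.29 and Gm10719 -1.39; with OSCA-32 against PBS, Gm17132 -0.30 and Gm10718 -0.57; with OSCA-40 against OSCA-32, Gm17132 -0.90, Gm10800 -0.77, Gm10801 -0.99, Gm10718 -0.72, Gm10719 -0.78 and Gm42857 -0.88. This scale holds the dog share. The share of the 8 genes was 40.3%, 34.8%, 35.5% and 36.9% of the mouse total for OSCA-40, OSCA-32, PBS and week 0, and 29.2%, 28.8%, 31.7% and 32.7% of the library total less the 2 highest dog genes. The 7 genes without Gm10800 held 6.15%, 9.04%, 13.7% and 13.9% of the library total and 20.2%, 16.1%, 16.1% and 16.6% of the mouse total. The count of all genes called was 531 with OSCA-40 against PBS (278 to 530 without 1 library, 313 with no variance trend, 2312 with no filter, 6725 on library totals), 86 with OSCA-32 against PBS (38 to 86, 43 with only the groups compared, 131 with a mean of at least 50, 1353 on library totals), 217 with OSCA-40 against OSCA-32 (70 to 171, 144 with the block, 112 with no variance trend, 1654 with no filter, 4638 on library totals) and 13 with PBS against week 0 (2 to 10, 24 with a mean of at least 50, 6 with the block, 5 with no variance trend, 4 with only the groups compared, 2 with no filter). On library totals the higher and lower calls were 66 and 1287 with OSCA-32 against PBS (71 and 15 after scaling) and 55 and 4583 with OSCA-40 against OSCA-32 (139 and 78). For the ratios these counts were 420 (196 to 397), 70 (39 to 68), 164 (36 to 161) and 6 (3 to 5). The cause of these changes was not tested. Same-numbered libraries of different groups did not deviate together (correlations of -0.056 to 0.005). No pairing by number was seen, though with 2 libraries per group this check cannot exclude one. The replicate block changed no count of members by over 1.5 times apart from the one above. Unknown depth limits all values.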

Other observations

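Several genes outside the 8 that were named for a similar pattern over the libraries carry LINE-1-like stretches of their own, by BLAST against the 3 LINE-1-like members. Among the 5 genes nearest to Gm17132, Tmcc1 was covered over 21.2% of a transcript, Caps2 over 18.1% and Gm18451 over 14.2%, each in antisense orientation. Lpl, the nearest gene to Gm10719, was covered over 13.8%, also in antisense. Gm44845, among the 5 nearest to Gm42857, was covered over 98.2% in sense orientation. The share of all compared genes with such a stretch was not counted, and its part in the likeness was not tested. Over all 255 mouse genes with such a stretch, 115 carried it in sense and 140 in antisense orientation. These include stretches under 1% of a transcript, unlike the 249 genes above. Of the mouse genes that came next in level after the 8, Gm42927 was covered over 8.72%, while Gm10721 was satellite-like over 99.9% of a transcript.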
